A study of Populus trichocarpa with 24 samples.

Results

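Transcript levels of 4 loci of the black cottonwood Populus trichocarpa were followed in 24 RNA sequencing libraries. They are Potri.003G183900 (HCT1), Potri.001G042900 (HCT6), Potri.003G059200 (CSE1) and Potri.001G175000 (CSE2), chosen by identifier from the 41335 loci of the deposited table and not by their levels. Earlier results of these data were nevertheless known when these loci and the lists used below were chosen. The names are those under which the loci were chosen, after published poplar nomenclature. The table holds identifiers only, and 0 of the 4 had an entry in the RefSeq gene table of assembly P.trichocarpa_v4.1, so the names were not checked and rest on the identifiers alone. The numbers of the esterase pair may be used the other way round elsewhere, so CSE1 and CSE2 here mean these identifiers. Reads of near-identical copies may also have been divided between the members of a pair in ways that cannot be traced.

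The libraries fall into 8 groups of 3. The captured groups were fibers, vessel elements, and both of these together with ray cells (called the mix), cut from the xylem of greenhouse trees by laser microdissection. The tissue groups were differentiating xylem scraped from debarked stems, fully expanded young leaves, phloem scraped from the inside of the bark, primary roots, and shoot tips from the upper internodes. All labels give an age of 6 months, although the protocol took the roots from water-grown young seedlings. No treatment or mutant was involved. Only the RNA of captured cells was amplified, so capture and amplification cannot be told apart, and the labels tie no library to a tree. The p-values therefore measure the spread between these libraries, which may be technical.

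Lignin, the polymer that stiffens and waterproofs wood, is built from monolignols, which are made from phenylalanine. Partway along this route the hydroxycinnamoyltransferase HCT joins p-coumarate, delivered as its CoA ester, to shikimate. A cytochrome P450 hydroxylase (C3H) then adds a hydroxyl group to that shikimate ester. Caffeoyl shikimate esterase (CSE), characterised in Arabidopsis, releases caffeate from the product, while HCT can also pass the caffeoyl group back to CoA, so both enzymes act on shikimate esters at the entry to guaiacyl and syringyl lignin.

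Library totals ran from 5689642 to 30917688 counts. The 4 loci were well covered, with 97 counts (95% Poisson interval 78.7 to 118) for CSE2 in phloem replicate 3 as the lowest value of any library and 25762 for HCT1 in xylem replicate 1 as the highest. Such intervals cover counting error only. Levels are given as CPM, the count relative to the library size after TMM scaling over the 24 libraries. Because gene lengths were not used, a level is compared between libraries for 1 locus and never between loci. A locus was called higher or lower where edgeR's quasi-likelihood test gave an adjusted p (Benjamini-Hochberg, over all loci tested) below 0.05 and the change was 2-fold or more. As a check of the labels, 5 loci listed as secondary wall cellulose synthases summed to 9128 ± 1666 CPM (SD, n = 3) in xylem. Phloem followed among the tissues with 271 ± 39.8 CPM. In the captures the same loci summed to 8765 ± 1765 CPM in fiber, 1356 ± 422.3 CPM in vessel and 2454 ± 205.4 CPM in the mix. A list of 8 vessel-associated NAC regulator loci summed to 124.5 ± 11.5 CPM in fiber captures and 58.9 ± 49.6 CPM in vessel captures, with 3 loci at 0 counts in each of these groups. A list of 4 fiber-associated NAC loci, none of them at 0 counts over a group, came to 144.2 ± 22.3 CPM in fiber captures against 84.7 ± 55.1 CPM in vessel captures. Neither sum was thus higher in vessel captures than in fiber captures. Single loci went both ways. Their log2 folds of fiber over vessel ran from -5.02 to 5.43 in the vessel list and from -0.75 to 1.91 in the fiber list. No tested locus of either list was called. These lists were recalled from poplar nomenclature and were not checked.

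**Figure D1:**
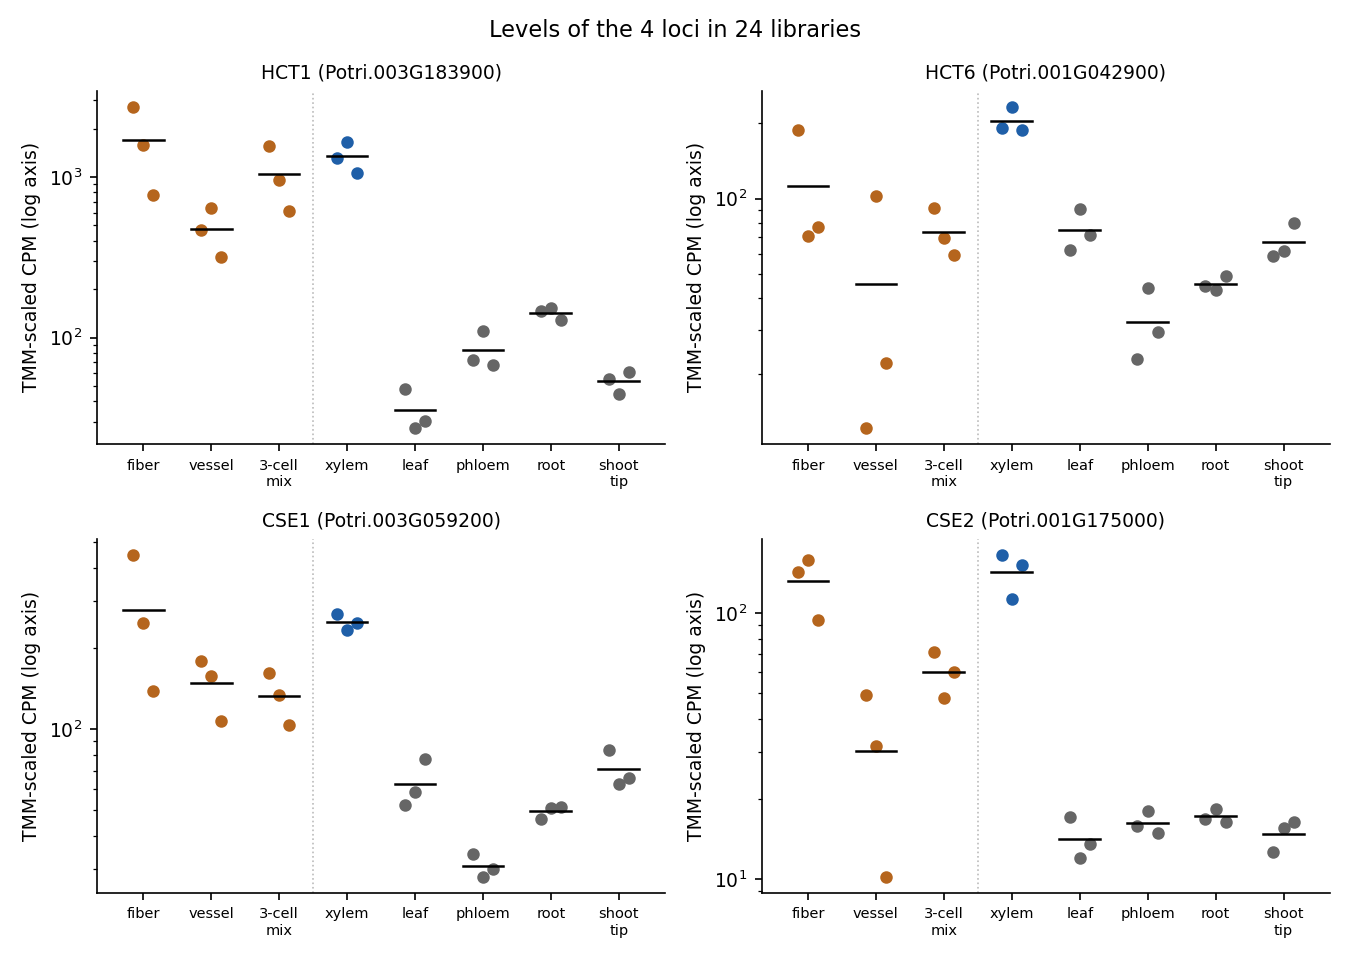
TMM-scaled CPM (log axis) of each locus in the 24 libraries, with captures left of the dotted line and tissues right of it. Points are libraries, bars are group means, and in every panel the 3 xylem libraries lie above all 12 libraries of leaf, phloem, root and shoot tip.

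Differentiating xylem was set against each other tissue to see where in the plant these loci were most expressed. All 4 loci rose in xylem against each of the 4 other tissues, from 2.73-fold (HCT6 against leaf) to 38.3-fold (HCT1 against leaf). For these loci xylem libraries never overlapped with those of another tissue, though how many of all loci separated in this way was not counted. The share of all 31308 tested loci called higher in xylem was 17.3% against phloem, 19.3% against shoot tip, 20.5% against leaf and 21.2% against root. A lower level in a tissue can come from fewer expressing cells or from less RNA per cell, which cannot be told apart in bulk samples.

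HCT1, the transferase locus named first in the pair, had 1315, 1655 and 1052 CPM in the 3 xylem libraries. It reached 128.9 to 152.9 CPM in root, 67.1 to 110.0 CPM in phloem, 44.5 to 61.0 CPM in shoot tip and 27.3 to 47.9 CPM in leaf. The lowest xylem library therefore stood far above the highest of any other tissue. The log2 fold of xylem was 5.26 ± 0.31 (SE) against leaf, 4.65 ± 0.30 against shoot tip, 4.01 ± 0.29 against phloem and 3.22 ± 0.28 against root, with edgeR adjusted p-values of 3.46e-09, 2.26e-08, 7.81e-08 and 3.15e-07. Below xylem the order of means was root, phloem, shoot tip and leaf. Root exceeded shoot tip (log2 fold 1.43, adjusted p = 0.000306) and leaf was below root (-2.04, 1.49e-05) and below phloem (-1.25, 0.000997), where 52%, 51.3% and 45.2% of all tested loci were called. Neighbours in this order differed by less than the 2-fold threshold. Phloem lay at a log2 fold of -0.78 against root (adjusted p = 0.0169) and 0.64 against shoot tip (0.0635), and leaf at -0.61 against shoot tip (0.0793), where 51.4%, 31.1% and 29.8% of tested loci were called. With library totals as the only scaling, phloem against root became -1.21 and leaf against shoot tip -1.25, both called, and phloem was also called lower than root without phloem replicate 2 (-1.03).

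HCT6, the other transferase locus, had 192.0, 233.2 and 188.2 CPM in xylem. It had 62.3, 91.1 and 71.8 CPM in leaf, 59.0, 61.9 and 79.6 CPM in shoot tip, 44.8, 43.0 and 49.1 CPM in root, and 22.9, 44.1 and 29.4 CPM in phloem. Its other tissues thus came in nearly the opposite order to those of HCT1, with leaf first and phloem last. The log2 fold of xylem was 1.45 ± 0.23 (SE) against leaf, 1.62 ± 0.23 against shoot tip, 2.16 ± 0.23 against root and 2.67 ± 0.24 against phloem, and the edgeR adjusted p was at most 5.64e-05. Leaf and shoot tip could not be separated (0.17, adjusted p = 0.576), and on library totals alone the sign turned (-0.44). Root against shoot tip (-0.54, 0.0462) and phloem against root (-0.51, 0.0588) stayed under 2-fold. Leaf was called higher than phloem (1.22, 0.000335; 0.71 and not called on library totals alone). Phloem was called lower than shoot tip (-1.05, 0.00176), a call lost at -0.88, -0.85 and -0.97 without shoot tip replicate 3, phloem replicate 1 or phloem replicate 3, all 3 with adjusted p below 0.05.

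CSE1, an esterase locus, had 268.5, 234.3 and 248 CPM in xylem, with the lowest coefficient of variation of the 4 loci in xylem (6.88%). It had 83.8, 62.4 and 65.9 CPM in shoot tip, 52.0, 58.1 and 77.4 CPM in leaf, 46.2, 51.0 and 51.2 CPM in root, and 34.2, 28.2 and 30.0 CPM in phloem. The log2 fold of xylem was 1.83 ± 0.18 (SE) against shoot tip, 2.004 ± 0.18 against leaf, 2.33 ± 0.18 against root and 3.02 ± 0.19 against phloem, with edgeR adjusted p of at most 8.29e-07. Phloem was lower than shoot tip by the call rule (-1.19, adjusted p = 8.13e-05). Leaf was called higher than phloem (1.02, 0.000173), but only just past the threshold, and the call was lost at 0.81, 0.95 and 0.97 without leaf replicate 3, phloem replicate 2 or phloem replicate 3, at 0.99 without the filter on low counts and at 0.53 on library totals alone. Shoot tip, leaf and root were not separated by 2-fold from each other. On library totals alone, leaf against root had a log2 fold of -0.62 in place of 0.33, and phloem was called lower than root (-1.15 in place of -0.69).

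CSE2, the other esterase locus, had 164.7, 112.5 and 150.9 CPM in xylem, against 16.9, 18.3 and 16.4 CPM in root, 15.9, 18.1 and 14.9 CPM in phloem, 12.6, 15.5 and 16.3 CPM in shoot tip, and 17.2, 11.96 and 13.5 CPM in leaf. Its log2 fold of xylem lay within a narrow range, at 3.05 ± 0.19 (SE) against root, 3.12 ± 0.19 against phloem, 3.28 ± 0.19 against shoot tip and 3.34 ± 0.19 against leaf, with edgeR adjusted p of at most 1.72e-08. None of the 6 comparisons among the other tissues was called for CSE2, with adjusted p from 0.178 to 0.824. On library totals alone, leaf was called lower than root (-1.26, adjusted p = 0.000225, against 0.0381 to 0.415 over the settings that left out a library).

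**Figure D2:**
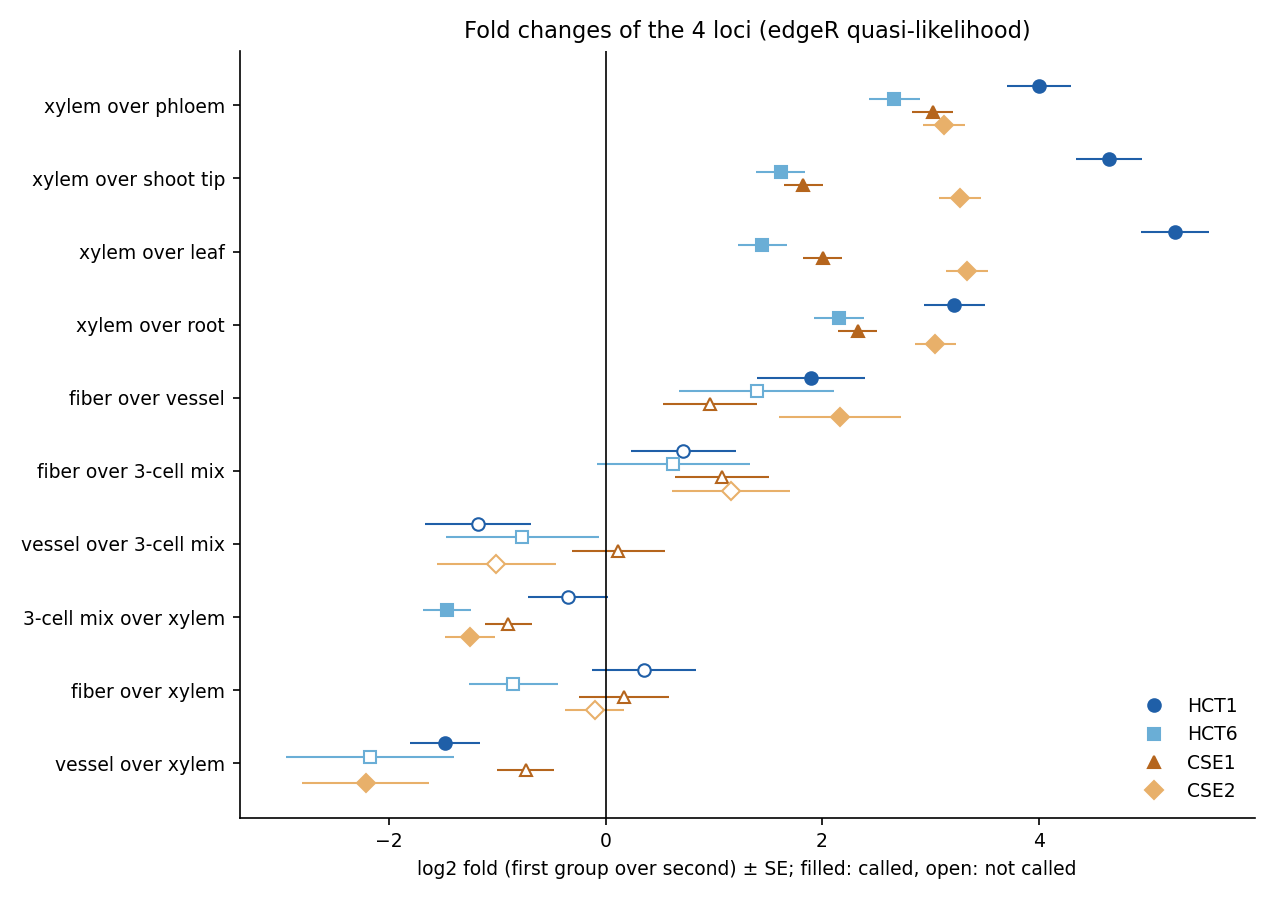
Log2 fold (first group over second) with its SE for the 4 loci in the 4 comparisons of xylem with another tissue and the 6 comparisons that involve captures. Filled symbols are called and open symbols are not. All 16 folds of xylem over another tissue are filled and above 0.

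The other genes of the route gave the setting for these folds. A list of 18 further monolignol loci, recalled from poplar nomenclature and equally unchecked, had 18 members called higher in xylem than in phloem (median log2 fold 4.75, against 0 for all tested loci), 17 higher than in shoot tip (median 4.01, all loci -0.09), 16 higher and 1 lower than in leaf (4.53, all loci -0.06) and 17 higher than in root (2.20, all loci -0.05). Within it are 6 loci listed for C3H, which acts on the shikimate ester, and for steps on either side (coumarate-CoA ligase and caffeoyl-CoA methyltransferase). These 6 loci were called higher in xylem in all 4 comparisons. Their log2 folds ran from 2.21 to 6.05 against phloem and from 2.30 to 6.403 against root. Against phloem the folds of HCT6 (2.67), CSE1 (3.02), CSE2 (3.12) and HCT1 (4.01) all lay below the list's median, and against leaf and shoot tip only that of HCT1 lay above it. Against root that of HCT6 (2.16) was the one below it.

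Because the members of a pair were counted in the same libraries, their count ratio can be compared between libraries without gene lengths. The count ratio of HCT1 to HCT6 was 6.85, 7.10 and 5.59 in the xylem libraries. It was 0.769, 0.299 and 0.423 in leaf, 3.18, 2.49 and 2.28 in phloem, 3.28, 3.55 and 2.62 in root, and 0.939, 0.718 and 0.766 in shoot tip. HCT6 thus had more counts than HCT1 in all 6 leaf and shoot tip libraries, while HCT1 had more in every other library of the series. The mean log2 ratio was 2.70 ± 0.19 (SD, n = 3) in xylem and 0.40 ± 1.26 (n = 12) in the other tissues, a difference of 2.30 with p = 0.0044 by a two-sided exact permutation test, the smallest this design can give. Adjusted over the 22 ratio comparisons made, that exact p became 0.0968, above the threshold. Since the exact p was already the smallest possible, a clearer separation of this ratio could not have lowered the adjusted value. The adjusted value therefore cannot decide whether the ratio differs. The test exchanged single libraries, although the 12 compared with xylem come from 4 unlike tissues of 3 libraries each. Its p therefore treats libraries of the same tissue as independent and does not measure the spread between tissues. Any 3 against 3 comparison cannot go below an exact p of 0.1.

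For the esterase pair CSE1 was put first, and the direction of its ratio depends on that choice. The count ratio of CSE1 to CSE2 was 1.63, 2.08 and 1.64 in xylem, against 3.02, 4.85 and 5.72 in leaf, 2.15, 1.56 and 2.01 in phloem, 2.73, 2.78 and 3.12 in root, and 6.65, 4.01 and 4.03 in shoot tip. Xylem libraries lay below all of leaf, root and shoot tip but overlapped with phloem. The mean log2 ratio was 0.83 ± 0.20 (SD, n = 3) in xylem and 1.70 ± 0.63 (n = 12) in the other tissues, a difference of -0.88 with an exact permutation p of 0.0396 and an adjusted p of 0.157. Without xylem replicate 1, 2 or 3 the difference was -0.82, -0.99 and -0.82, with exact p-values of 0.132, 0.0659 and 0.132. Here too the test exchanged single libraries, so these p-values do not measure the spread between tissues.

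**Figure D3:**
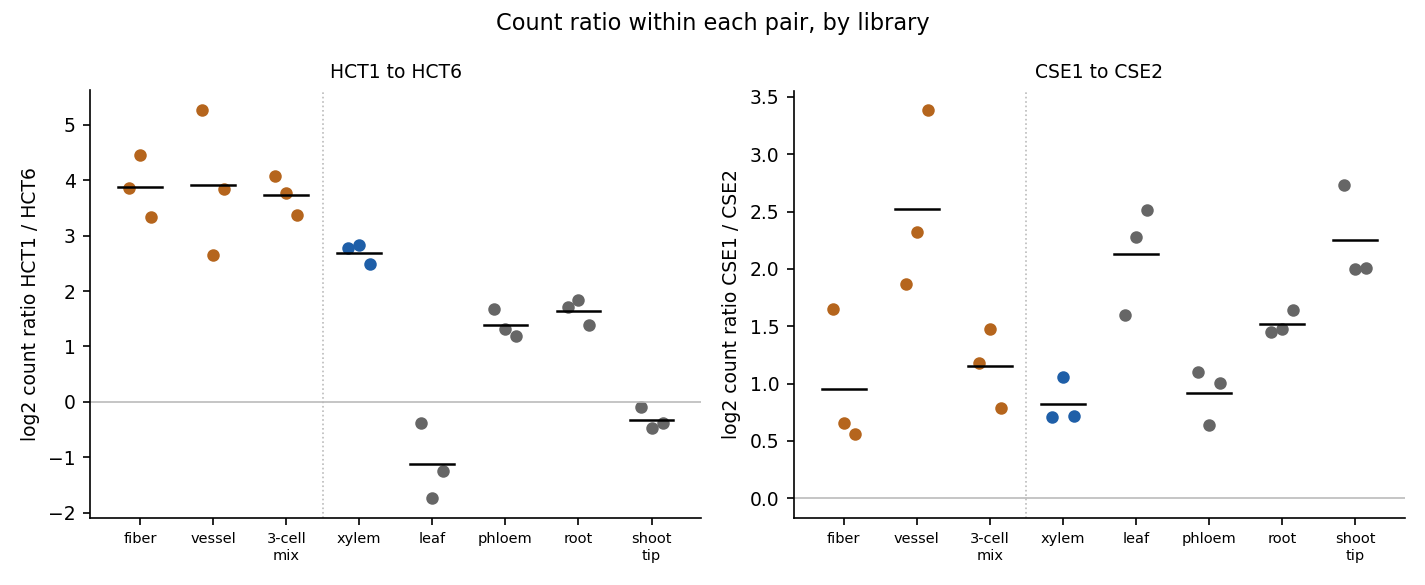
Log2 count ratio within each pair by library, with captures left of the dotted line and bars at group means. The ratio of HCT1 to HCT6 is below 0 in leaf and shoot tip libraries alone, and that of CSE1 to CSE2 is above 0 in every library.

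Fiber and vessel captures were compared to see how the loci were divided between the main cell types of wood. HCT1 and CSE2 were called higher in fiber, and HCT6 and CSE1 were not called, while 2.85% of the 22828 loci tested in captures were called higher in fiber. HCT1 had 2742, 1570 and 772 CPM in fiber captures against 468.1, 643.8 and 315 CPM in vessel captures. The groups did not overlap, though how many of all tested loci separated in this way was not counted. The lowest fiber library was close to the highest vessel library. The log2 fold was 1.90 ± 0.50 (SE), edgeR adjusted p = 0.0476. CSE2 had 142.4, 157.7 and 93.7 CPM in fiber against 49.3, 31.5 and 10.2 CPM in vessel, again without overlap, with a log2 fold of 2.17 ± 0.56 and an adjusted p of 0.047. Both calls sat at the threshold and each held in 6 of 13 alternative settings, with adjusted p from 0.00153 to 0.158 for HCT1 and from 0.000404 to 0.134 for CSE2. HCT1 kept its call only without fiber replicate 3, and CSE2 only without vessel replicate 1, among the 6 settings that left out a library. Over those settings the log2 fold stayed between 1.38 and 2.26 for HCT1 and between 1.70 and 2.68 for CSE2.

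HCT6 had the widest spread of the 4 loci in vessel captures (coefficient of variation 108.8%), with 12.1, 102.2 and 22.0 CPM there and 188.8, 71.1 and 76.7 CPM in fiber. Vessel replicate 2 lay above the lower fiber libraries. The log2 fold of 1.39 ± 0.72 (SE) had an edgeR adjusted p of 0.274, and without vessel replicate 2 it was 2.70 with an adjusted p of 0.0272 (0.0272 to 0.651 over the settings that left out a library). CSE1 had 446, 248.9 and 138.7 CPM in fiber and 180.3, 157.9 and 107.2 CPM in vessel, with overlapping groups, a log2 fold of 0.96 ± 0.43 and an adjusted p of 0.205. Of the 18 other monolignol loci, 13 were called higher in fiber and none lower, with a median log2 fold of 2.04 against 0 for all tested loci. The spread between captures was wide, with a biological coefficient of variation of 111.3% in the 9 captures and 27.5% in the 15 tissue libraries. Detected loci ran from 19639 to 21816 in fiber captures and from 17956 to 22355 in vessel captures, and the part of these differences in the folds was not tested.

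The mix, which adds ray cells, had a lower mean than the fiber captures for each locus, by differences that were not called. It had 1551, 959 and 613.2 CPM of HCT1, 91.7, 69.9 and 59.4 CPM of HCT6, 162.1, 134.2 and 103.9 CPM of CSE1, and 71.5, 48.1 and 60.0 CPM of CSE2. By edgeR's test none of the 4 loci was called in fiber against the mix, where 79 of 22828 loci (0.346%) were called, or in vessel against the mix, where 3 (0.0131%) were. Without adjustment 1 locus in each comparison passed 0.05 in edgeR, CSE1 in fiber against the mix (log2 fold 1.08) and HCT1 in vessel against the mix (-1.18). DESeq2 also called none of the 4 in either comparison. With all 24 libraries in 1 fit, both of these loci were called, at 1.07 (adjusted p = 0.0287) and -1.16 (0.0434), against adjusted p of up to 0.895 and 0.845 over the other alternatives. CSE2 was the locus whose fiber libraries all lay above those of the mix, at a log2 fold of 1.16 ± 0.55 (SE) and an adjusted p of 0.493. How many of all tested loci separated in this way was not counted.

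Captures were also set against the xylem tissue they were cut from. Fiber had no locus called, where 22.4% of 23735 tested loci were, with log2 folds of 0.36 ± 0.48 (SE) for HCT1, -0.85 ± 0.41 for HCT6, 0.17 ± 0.41 for CSE1 and -0.10 ± 0.28 for CSE2, and edgeR adjusted p-values from 0.2 to 0.847. The count was 0 of 4 also without adjustment, and 0 with DESeq2. HCT6 was called lower in fiber without fiber replicate 1 (-1.44, adjusted p = 0.0104, against 0.0104 to 0.409 over alternatives). Without that library the signs of HCT1 (-0.16) and CSE1 (-0.34) turned, as did that of CSE2 without fiber replicate 3 (0.093) or xylem replicate 1 (0.0089). In the mix, HCT6 (-1.46 ± 0.22, adjusted p = 0.00178) and CSE2 (-1.25 ± 0.23, 0.00391) were called lower than in xylem tissue, where 21.3% of 25245 tested loci were. HCT6 lost its call with all 24 libraries in 1 fit (-1.499, adjusted p = 0.0523). CSE1 was at -0.90 ± 0.22 with an adjusted p of 0.0123, under 2-fold, and was called without mix replicate 1 (-1.04). HCT1 was at -0.35 ± 0.37 (0.464).

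Vessel captures had all 4 loci below every xylem library, though how many of all tested loci did so was not counted. HCT1 (-1.49 ± 0.32, adjusted p = 0.0218) and CSE2 (-2.22 ± 0.59, 0.0463) were called lower than in xylem tissue, where 12.9% of 24194 tested loci were. HCT6 stood at -2.18 ± 0.78 with an edgeR adjusted p of 0.12 and CSE1 at -0.74 ± 0.26 with 0.121. HCT6 was called lower by DESeq2 (-2.11, 0.0343), without vessel replicate 2 (-3.56, 0.012) and with all 24 libraries in 1 fit (-2.23, 0.0032), against a highest adjusted p of 0.272. Without xylem replicate 1, 2 or 3 neither HCT1 nor CSE2 was called, with adjusted p from 0.0512 to 0.152, and CSE2 also lost its call without vessel replicate 2 (0.084). These comparisons pair amplified with unamplified RNA. In captures the count ratio of HCT1 to HCT6 was 14.5, 22.1 and 10.1 in fiber, 38.6, 6.30 and 14.3 in vessel, and 16.9, 13.7 and 10.3 in the mix. Fiber and mix libraries all lay above the 3 xylem libraries (exact permutation p = 0.1 each, the smallest possible), and vessel replicate 2 did not. The ratio of CSE1 to CSE2 was 3.13, 1.58 and 1.48 in fiber, 3.65, 5.003 and 10.5 in vessel and 2.27, 2.79 and 1.73 in the mix, so that every vessel library lay above every fiber and mix library. The exact permutation p of vessel against the mix, and of fiber against vessel, was 0.1, the smallest possible.

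Counts were also expressed per 100 counts of the 18 other monolignol loci in the same library. This quantity was chosen after levels had been seen and is given without a test. HCT1 took 3.71 to 5.33 counts per 100 in fiber, 3.23 to 4.67 in vessel, 4.10 to 5.05 in the mix, 3.56 to 5.54 in xylem and 3.46 to 5.30 in phloem, so these 5 groups overlapped although the CPM of HCT1 in phloem was a small part of that in xylem. It took 2.15 to 2.62 in root, 1.16 to 1.42 in shoot tip and 0.344 to 0.707 in leaf. The coefficient of variation of HCT1 was 19.1% among fiber captures on this scale, where that in CPM was 58.5%. It was also lower than in CPM in the mix (10.8% against 45.6%), vessel (18.1% against 34.6%), shoot tip (10.6% against 15.7%) and phloem (24.7% against 28.0%). It did not shrink in xylem (24.2% against 22.6%), leaf (37.1% against 31.7%) or root (10.1% against 8.79%). For CSE2 in fiber it was 24.2%, where that in CPM was 25.4%. Fiber replicate 1 was highest and replicate 3 lowest both for HCT1 and for the 18 loci, which summed to 51479 and 20818 CPM there.

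HCT6 took 0.187 to 0.369 counts per 100 in fiber, 0.106 to 0.740 in vessel, 0.287 to 0.397 in the mix and 0.575 to 0.780 in xylem. It took more in phloem (1.14 to 2.12), shoot tip (1.33 to 1.86) and leaf (0.920 to 1.15), and 0.735 to 0.817 in root, which overlapped with xylem. CSE1 took 1.10 to 1.59 in vessel captures, above 0.656 to 0.866 in fiber and 0.507 to 0.707 in the mix. In xylem CSE1 took 0.784 to 0.838, within the range of fiber. Among tissues its highest values were 1.36 to 1.70 in phloem and 1.54 to 1.89 in shoot tip. CSE2 took 0.376 to 0.510 in xylem, 0.770 to 0.872 in phloem, and 0.105 to 0.434 in vessel captures, where it spread most.

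**Figure D4:**
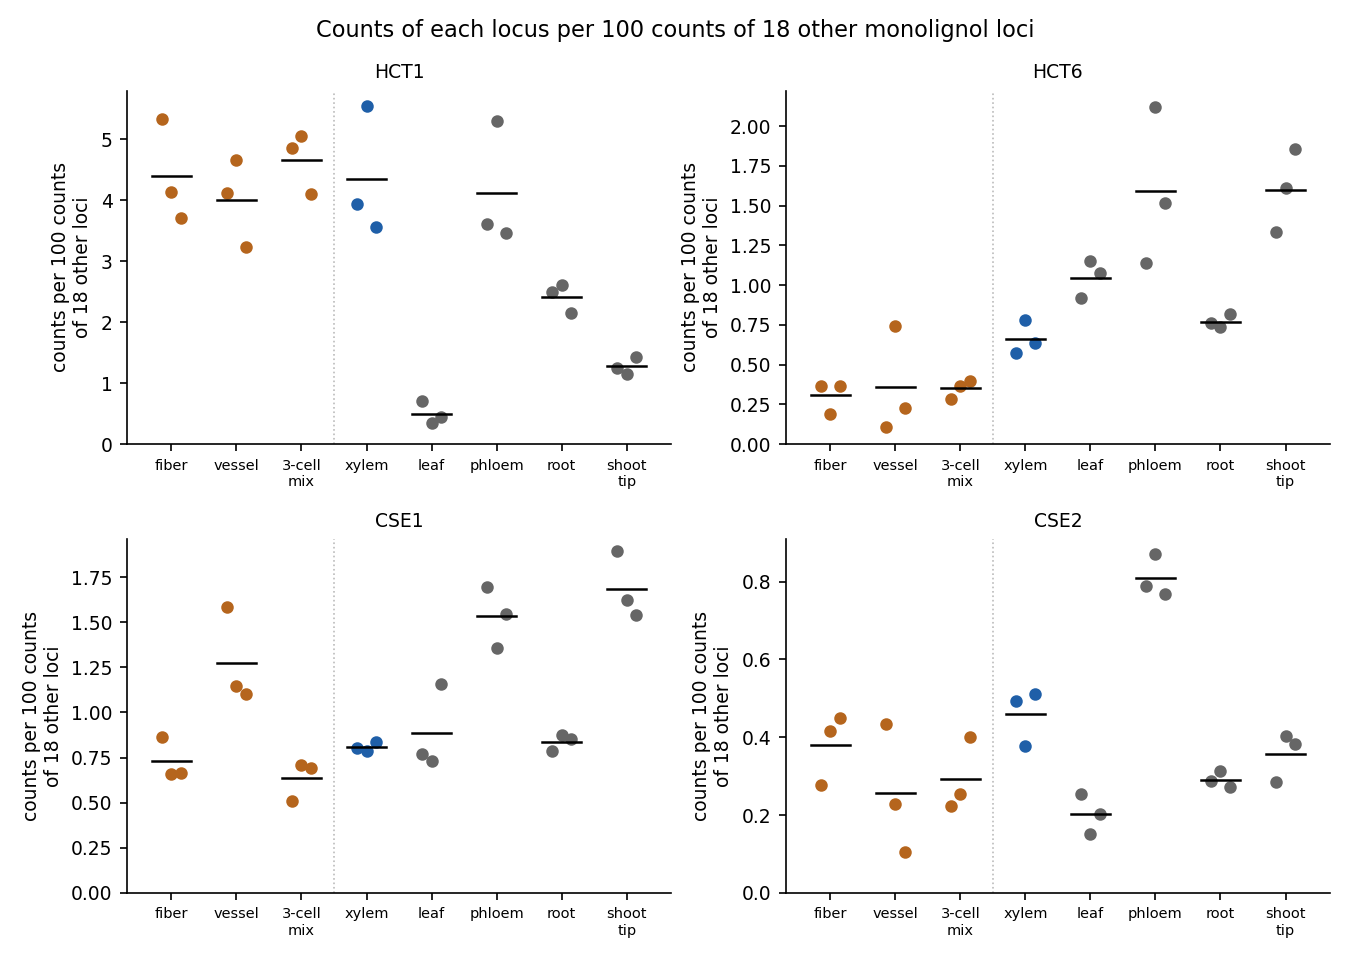
Counts of each locus per 100 counts of the 18 other monolignol loci in the same library, on linear axes from 0, with captures left of the dotted line and bars at group means. HCT1 holds a similar share in captures, xylem and phloem (3.23 to 5.54) and a lower one in root, shoot tip and leaf.

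Likeness of pattern was described by Pearson's r of log2 CPM (prior count 2) over the 24 libraries, which come in 8 groups of 3 and are not independent. Across all libraries HCT1 ran with CSE2 (r = 0.90) and CSE1 (0.84) more closely than with HCT6 (0.44), and CSE1 with CSE2 at 0.85. HCT6 had r of 0.58 with CSE1 and 0.59 with CSE2. Values over all 24 libraries also hold the difference between amplified captures and unamplified tissues. HCT1 with HCT6 was closer within tissues alone and within captures alone, as given below, than over all libraries. Within the 15 tissue libraries alone HCT6 was much closer to CSE1 (0.93), and HCT1 to CSE2 (0.94), while HCT1 with HCT6 (0.67) and CSE1 with CSE2 (0.87) were lower. The other pairs of a transferase with an esterase, HCT1 with CSE1 (0.75) and HCT6 with CSE2 (0.80), lay between these same-family values. In tissues, HCT6 with CSE1 and HCT1 with CSE2 were thus each closer than either same-family pair, and the other cross-family pairs were not. Within the 9 captures that order did not hold, with 0.47 for HCT6 with CSE1, 0.82 for HCT1 with CSE2, 0.78 for HCT1 with HCT6 and 0.67 for CSE1 with CSE2. The median r with the 18 other monolignol loci was 0.87 for HCT1, 0.81 for CSE1, 0.82 for CSE2 and 0.50 for HCT6. Among 31235 other loci expressed at 1 CPM or more in at least 3 libraries, those most like HCT1 were Potri.012G127700 and Potri.009G011100 (r = 0.98 each). For CSE2 they were Potri.010G244900 (0.97) and Potri.004G226800 (0.96), for CSE1 Potri.004G067000 and Potri.002G242500 (0.93 each), and for HCT6 Potri.006G234100 (0.88) and Potri.009G075400 (0.85). The table names none of these 8 loci.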

How the data were processed

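A single table of raw, unnormalized read counts by locus was deposited, with 24 libraries as columns, per the file headers. TopHat is named, without a version, per the submitters' processing notes. The sources used here give neither the counting tool nor the build, annotation or strand setting. All 24 columns matched a sample title and 0 were left over.

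Differences were tested with edgeR 4.0.16 under R 4.3.3 (filterByExpr, TMM, quasi-likelihood test, adjusted over all tested loci), with DESeq2 1.42.0 as an alternative. The 15 tissue libraries, the 9 captures and each capture group with xylem were fitted separately. Each standard error is the size of the log2 fold over the root of its F statistic. On simulated counts, with 50 loci changed at each fold size, the test called 36% of 2-fold and 100% of 4-fold changes for xylem against phloem (30328 simulated loci tested, 6 unchanged loci called). For fiber against vessel it called 10% of 4-fold and 34% of 8-fold changes (23415 tested, 1 unchanged locus called). Because a call needs an estimated change of 2-fold or more, a true 2-fold change is missed wherever its estimate falls short, at any precision. Simulated counts had the spread typical of each expression level and a single mean profile for all groups. The changed loci were drawn at random, so these rates do not give the power for the 4 loci. Ratios had 0.5 added to each count and were tested with scipy 1.17.1. Alternatives changed scaling, filter, tool, libraries in the fit and pairing, and left out each library. Replicates differed by chi-square per degree of freedom of 5.50 to 225.2, so none was merged. Phloem replicate 3 was unlike the other phloem libraries, at 202.3 against replicate 1 and 225.2 against replicate 2. Phloem replicates 1 and 2 differed by 35.6. The TMM factor of phloem replicate 3 was 0.70, against 1.10 and 1.11 for replicates 1 and 2. Whether equal replicate numbers mark pairs was judged from correlated deviations around the group means. These exceeded 0.1 for all numbers for xylem with phloem (0.17, 0.41 and 0.21), shoot tip (0.32, 0.17 and 0.29) and leaf (0.13, 0.20 and 0.27), a hint from the data and not the labels.

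Members and lists were chosen with earlier results of these data known. Besides the 4 loci, the text names the 2 loci most correlated with each. Lists by product name could not be applied, since the reference matched 0 identifiers.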

Additional observations from a re-analysis of the deposited data

How the results depend on the processing

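All 16 folds of xylem over another tissue remained called under each of their 13 alternative settings, 208 values in all (log2 fold 1.34 to 5.85, adjusted p at most 0.0349). Calls that involve captures were less stable. Library totals in place of TMM moved the median log2 fold of all loci by 0.53 for xylem against leaf, -0.38 against root and -0.95 for leaf against root. For the rest, values are numbers of the 4 loci called, and the cause was not tested.

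Fiber against vessel had 2 loci called, 1 with DESeq2 size factors, 1 on library totals and 0 with only those libraries in the fit, and 0 to 1 when a library was left out. With all 24 libraries in 1 fit, fiber against the mix and vessel against the mix each had 1 called in place of 0, and the mix against xylem 1 in place of 2, HCT6 being lost. Leaving out a library gave 2 to 3 for the mix against xylem, 0 to 1 for fiber against xylem, 0 to 2 for vessel against xylem (2 called), 1 to 2 for phloem against shoot tip (2), 2 to 3 for leaf against phloem (3) and 0 to 1 for phloem against root (0). On library totals, leaf against shoot tip had 1 called (0), leaf against root 2 (1), phloem against root 2 (0), and leaf against phloem 1, HCT1 lower, in place of 3 that were mostly higher. With a replicate block 4 loci were called in each xylem comparison, and the sole change of a call was HCT6 in vessel against xylem (-2.76, adjusted p = 0.028, giving 3 called), whose numbers do not pair the libraries.

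Signs turned in values that were not called. On library totals the log2 fold became -0.44 (HCT6, leaf against shoot tip), -0.25 (HCT6, leaf against root) and -0.62 (CSE1, leaf against root). Over left-out libraries the log2 fold ranged from -0.16 to 0.70 (HCT1), -0.34 to 0.49 (CSE1) and -0.26 to 0.093 (CSE2) for fiber against xylem, from -0.0034 to 0.36 for CSE1 in vessel against the mix, and from -0.23 to 0.048 for CSE2 in leaf against shoot tip. The log2 ratio difference of HCT1 to HCT6 ranged from -0.67 to 0.64 for fiber against vessel, -0.15 to 0.42 for fiber against the mix and -0.49 to 0.81 for vessel against the mix, and stayed at 2.10 to 2.43 for xylem against other tissues (exact p 0.00549 to 0.022). That of CSE1 to CSE2 ranged from -0.99 to -0.78 for xylem against other tissues, -0.23 to 0.0060 for xylem against phloem, -0.54 to 0.0017 for fiber against the mix and -0.22 to 0.33 for fiber against xylem.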
